A study of Mus musculus with 8 samples.

Results

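Macrophages are the main resident immune cells of the heart before birth. They arise from yolk sac and fetal liver progenitors under the transcription factor PU.1 and need signalling through the CSF1 receptor. They clear dying cells and matrix, and tag targets with complement C1q. A panel of 33 macrophage and myeloid genes was read in RNA sequencing counts of whole mouse hearts at stage E18.5, shortly before birth. The panel was given as a list of gene symbols, and all 33 were found among the 49315 genes of the files, each under 1 Ensembl identifier. The samples were 4 mutant hearts (genotype CHD4 M195I/M195I, homozygous for a change in the chromatin-remodelling ATPase CHD4) and 4 wild type (WT) hearts of the same stage. Strain, litter and treatment are not stated in the labels, and p-values measure the spread between these samples. The comparison asks which of these transcripts differ in level between mutant and WT hearts. The mutant libraries held 18673488 to 21341235 counts in all and the WT libraries 18375951 to 20815388.

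Cardiomyocyte markers were abundant, and their 7 genes summed to between 36230 and 40990 CPM (counts scaled to a common library size) in mutant and between 41880 and 47540 CPM in WT hearts. These sums did not overlap, and all 7 log2 fold changes were negative (edgeR called 1 lower, Actn2 at -0.28, adjusted p = 0.00076, and DESeq2 called 4). Among other heart cell markers, edgeR called 1 of 6 endothelial genes lower, Kdr (-0.18, adjusted p = 0.017). It called 2 of 6 fibroblast genes lower, Tcf21 (-0.25, adjusted p = 0.0054) and Postn (-0.18, adjusted p = 0.021). Of the 6 endothelial genes 3 had a positive log2 fold change, and of the 6 fibroblast genes 1. Both summed levels overlapped. The endothelial list spanned 990.2 to 1080 CPM in mutant and 1031 to 1107 CPM in WT hearts. The fibroblast list spanned 6383 to 7040 CPM in mutant and 5909 to 7646 CPM in WT hearts. The part of these cell types in the myeloid levels was not tested. All levels below are CPM scaled by TMM unless stated otherwise. The 33 myeloid genes together took between 211 and 268.5 CPM in mutant hearts and between 196.8 and 248.9 CPM in WT hearts. Lymphocyte markers were scarce: 1 of 12 genes passed the filter on low counts, and the list summed to at most 4.03 CPM in any library. Of 8 genes of alveolar macrophages, 2 passed the filter and Ear1 had no count in any library. Airway RNA differed between libraries. Scgb3a2, a secretoglobin of airway epithelium, stood at 6.48, 0.328, 284.2 and 498.2 CPM of the library totals in mutant replicates 1 to 4 and at 384.8, 0.817, 436.3 and 175.9 CPM in WT replicates 1 to 4. Mutant replicates 3 and 4 and WT replicates 1, 3 and 4 are therefore called libraries with airway RNA below (at least 10 CPM), and the other 3 libraries without. Without here means little of it, since mutant replicate 1 still held 121 counts of Scgb3a2. The erythroid list (9 genes found) summed to between 1253 and 1974 CPM in mutant hearts and between 2035 and 3894 CPM in WT hearts. These sums did not overlap. Of its 8 tested genes edgeR called 0, with 4 lower at an unadjusted p under 0.05, while DESeq2 and limma-voom each called 4 lower. How far blood in the heart bears on the myeloid levels was not tested.

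Of the 33 genes, 32 passed the filter and were tested, 4 were higher in the mutants and 28 were not called. The lysozyme gene Lyz2, the fractalkine receptor gene Cx3cr1, the pore-forming Mpeg1 and the beta-glucan receptor gene Clec7a rose, and none of the 32 fell (adjusted p under 0.05, edgeR quasi-likelihood test with Benjamini-Hochberg adjustment over 16372 genes). DESeq2 and limma-voom also called 0 lower, although DESeq2 gave no adjusted p for 9 of the 32, and 0 were lower at an unadjusted p under 0.05 (14.0% of all tested genes were). At that level 6 were higher, against 12.4% of all tested genes. The share of tested members called higher was 12.5%, and over all tested genes 5.75% were called higher and 7.48% lower. In either direction the share of members was also 12.5%, near the 13.2% of all tested genes. With library totals in place of TMM the split over all genes turned to 11.3% higher and 5.24% lower. The median log2 fold change (mutant over WT) was 0.09 over the 32 members and 0.00 over all tested genes, and 24 of the 32 had a positive value. In whole hearts, more or fewer macrophages and more or less RNA per macrophage cannot be told apart.

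**Figure D1:**
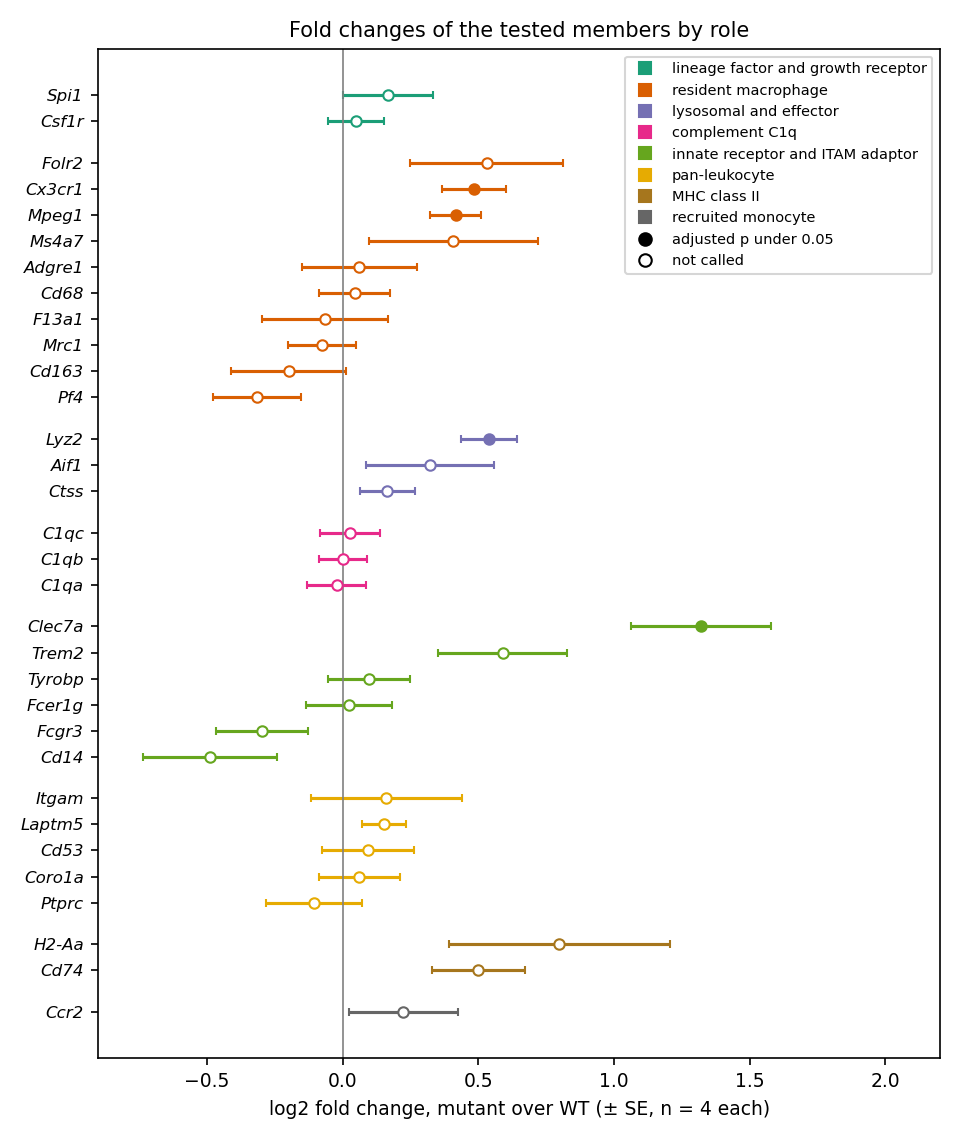
Log2 fold changes, mutant over WT, of the 32 tested members with their standard errors (n = 4 hearts each), grouped by role. Filled points passed an adjusted p of 0.05: Clec7a lies farthest to the right at 1.32, Lyz2, Cx3cr1 and Mpeg1 lie between 0.42 and 0.54, and the 3 C1q genes lie between -0.02 and 0.03.

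Lyz2 encodes the lysozyme of macrophages, which breaks down bacterial cell walls. It stood at 24.8, 19.1, 26.6 and 27.97 CPM in mutant replicates 1 to 4, against 16.9, 17.0, 16.02 and 17.8 CPM in WT replicates 1 to 4. All mutant libraries lay above all WT libraries, and the mutants spread more widely. The log2 fold change was 0.54 ± 0.10 (SE, adjusted p = 0.0045), which is 1.45-fold. Lyz2 is also made by alveolar epithelium and has a close paralogue, Lyz1, with which it can share reads. Lyz1 stood at 11.5 CPM of the library total in mutant replicate 4, which also held the most Sftpc (123.6 CPM, a surfactant gene of alveolar cells), and at most 0.482 CPM in the other 7 libraries. Without mutant replicate 4 the log2 fold change of Lyz2 was 0.47 (adjusted p = 0.0080).

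Cx3cr1 encodes the receptor for fractalkine and marks resident macrophages and some monocytes. It was measured at 11.2, 8.56, 12.9 and 9.79 CPM in mutant replicates 1 to 4, against 7.29, 6.99, 7.96 and 8.05 CPM in WT replicates 1 to 4. The lowest mutant heart, replicate 2, lay just above the highest WT heart, replicate 4. The log2 fold change was 0.48 ± 0.12 (SE, adjusted p = 0.013). Its ligand gene Cx3cl1 averaged 8.31 ± 1.86 CPM in mutant and 8.16 ± 0.71 CPM in WT hearts (SD, n = 4 each) and was not called (0.03 ± 0.14, adjusted p = 0.94, edgeR).

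Mpeg1 encodes perforin-2, a pore-forming protein of macrophage phagosomes. It stood at 12.3, 10.5, 13.2 and 11.5 CPM in mutant replicates 1 to 4, against 8.05, 9.49, 9.20 and 8.72 CPM in WT replicates 1 to 4. The groups did not overlap, and the gap between mutant replicate 2 and WT replicate 2 was the narrowest. The log2 fold change was 0.42 ± 0.09 (SE, adjusted p = 0.0079).

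Clec7a encodes dectin-1, a receptor for fungal beta-glucan that signals through its own tyrosine motif. It had the largest fold change of the 32 tested members and was scarce. Its raw counts were 22, 32, 31 and 32 in mutant replicates 1 to 4, against 15, 11, 9 and 9 in WT replicates 1 to 4. In CPM this was 1.16, 1.49, 1.599 and 1.53 in mutant hearts, against 0.816, 0.549, 0.445 and 0.4999 in WT hearts. The lowest mutant library and the highest WT library were both replicate 1, and the groups did not overlap (1.32 ± 0.26, adjusted p = 0.0034). Clec7a lies on chromosome 6 (129461591 to 129472779, GRCm38), 4.33 Mb from Chd4, and GENCODE M21 annotates it as a polymorphic pseudogene. An effect of sequence linked to the Chd4 allele and an effect of the mutation cannot be told apart for it. The same holds for the scavenger receptor gene Cd163, 0.765 Mb from Chd4, which was not called (-0.20 ± 0.21, adjusted p = 0.62).

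The 4 calls held without any 1 of the 8 libraries, with Scgb3a2 as a covariate (7.91% of all tested genes called higher and 10.2% lower) and with the replicate number as a block (6.25% higher and 8.75% lower). They also held in limma-voom (5.19% higher and 6.96% lower). DESeq2 called 3 of them and gave no adjusted p for Clec7a. It called 884 genes higher and 1258 lower. These are 2.88% and 4.10% of 30701 genes, a wider set than the 16372 behind the other shares, so the percentages cannot be compared. The calls were lost in the 3 libraries without airway RNA, where WT has 1 library that is assumed to vary like the others (adjusted p from 0.091 to 0.44, with 3.54% of genes called higher and 4.84% lower). There the log2 fold changes were 0.37 (Lyz2), 0.50 (Cx3cr1), 0.26 (Mpeg1) and 1.27 (Clec7a). They were also lost with Xist as a covariate (adjusted p from 0.14 to 0.37, with 0.739% of genes higher and 0.965% lower). With this covariate the log2 fold changes of Cx3cr1 (0.57) and Mpeg1 (0.51) were larger than without it, and those of Lyz2 (0.36) and Clec7a (0.83) were smaller. Xist ranged from 1.55 to 1.98 CPM of the library totals in mutant and from 1.252 to 1.56 CPM in WT hearts. These ranges barely overlapped. Xist was scarce in every library (23 to 40 counts), and the Y-linked Ddx3y was read in all 8 libraries (652 to 1628 counts). The Xist covariate therefore runs close to genotype and cannot serve as a correction for sex.

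**Figure D2:**
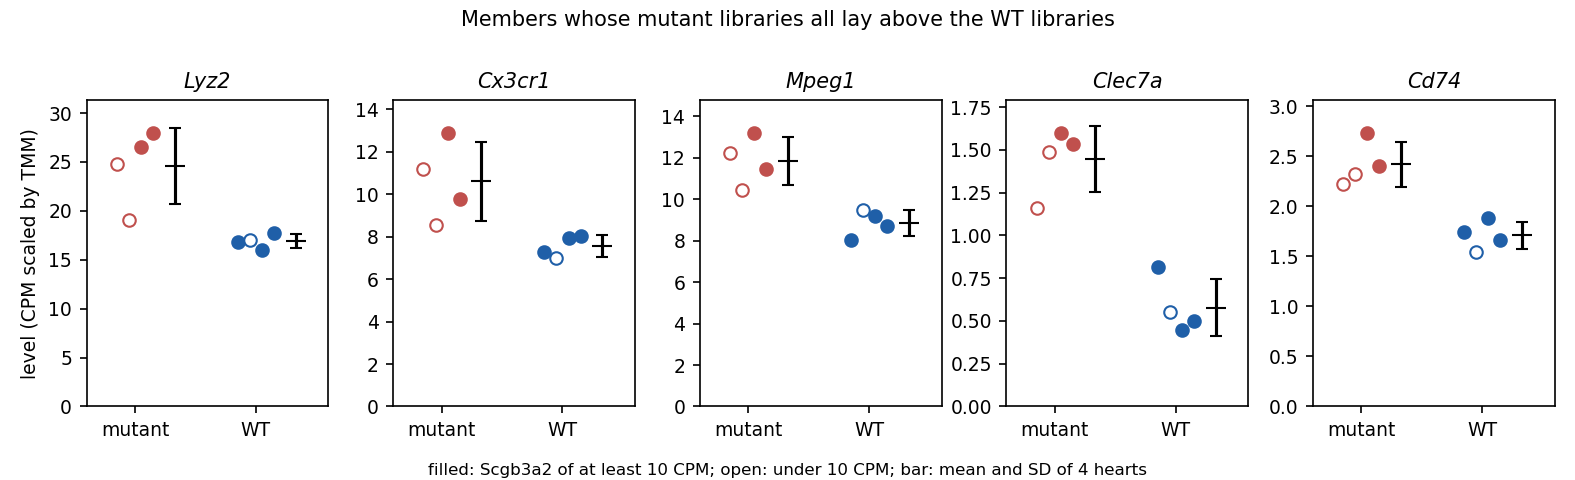
Levels in CPM scaled by TMM of the 5 members whose mutant hearts (left, red) all lay above the WT hearts (right, blue), 1 point per heart with the mean and SD of 4 beside them. Filled points are libraries with Scgb3a2 of at least 10 CPM and open points the others; Cd74 did not pass the test (adjusted p = 0.070).

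Promoters were read from RefSeq on GRCm38.p6 (250 bases before to 50 after the start), where 26 of the 33 members had at least 1 entry. They were searched on both strands for the core of the PU.1 site, since this factor sets the myeloid programme. GAGGAA was present in 57.6% of the 33 promoters of members and in 28.3% of all 32851 promoters. AGGAAGT was present in 33.3% and 9.35%, and GAGGAAGT, which holds both, in 15.2% and 3.2%. The 5 genes with the longest match were F13a1, Pf4, Ctss, C1qc and Cd53, and none of these was called. The promoters of the 4 genes that rose and of 2 C1q genes that did not are shown to set them side by side, 5′ to 3′ on the strand of the gene, with matches to GAGGAA or AGGAAGT in capitals. They lie at chr9:120068247-120068546 (Cx3cr1, minus strand), chr19:12460520-12460819 (Mpeg1, plus strand), chr10:117282223-117282522 (Lyz2, minus strand), chr6:129472730-129473029 (Clec7a, minus strand), chr4:136886151-136886450 (C1qb, minus strand) and chr4:136892865-136893164 (C1qc, minus strand).
Cx3cr1: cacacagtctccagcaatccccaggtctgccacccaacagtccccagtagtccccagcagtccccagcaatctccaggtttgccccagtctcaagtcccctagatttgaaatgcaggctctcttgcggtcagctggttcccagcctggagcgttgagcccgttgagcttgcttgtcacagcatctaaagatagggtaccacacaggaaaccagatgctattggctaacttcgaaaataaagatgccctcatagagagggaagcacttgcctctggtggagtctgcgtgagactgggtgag
Mpeg1: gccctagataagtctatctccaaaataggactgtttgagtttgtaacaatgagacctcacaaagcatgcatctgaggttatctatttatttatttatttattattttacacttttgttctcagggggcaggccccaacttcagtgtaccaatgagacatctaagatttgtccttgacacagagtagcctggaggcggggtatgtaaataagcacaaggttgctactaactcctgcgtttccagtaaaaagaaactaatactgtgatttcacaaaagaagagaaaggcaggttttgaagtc
Lyz2: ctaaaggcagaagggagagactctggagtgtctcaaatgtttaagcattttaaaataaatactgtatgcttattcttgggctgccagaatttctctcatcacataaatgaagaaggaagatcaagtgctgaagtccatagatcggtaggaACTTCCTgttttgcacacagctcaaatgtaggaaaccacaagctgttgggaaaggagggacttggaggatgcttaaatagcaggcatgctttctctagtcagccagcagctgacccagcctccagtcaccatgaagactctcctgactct
Clec7a: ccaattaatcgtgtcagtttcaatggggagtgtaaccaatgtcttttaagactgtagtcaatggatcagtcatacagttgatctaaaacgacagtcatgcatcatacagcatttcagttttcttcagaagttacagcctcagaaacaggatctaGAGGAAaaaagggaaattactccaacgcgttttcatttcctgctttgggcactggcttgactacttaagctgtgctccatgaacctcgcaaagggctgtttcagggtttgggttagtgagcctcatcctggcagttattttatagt
C1qb: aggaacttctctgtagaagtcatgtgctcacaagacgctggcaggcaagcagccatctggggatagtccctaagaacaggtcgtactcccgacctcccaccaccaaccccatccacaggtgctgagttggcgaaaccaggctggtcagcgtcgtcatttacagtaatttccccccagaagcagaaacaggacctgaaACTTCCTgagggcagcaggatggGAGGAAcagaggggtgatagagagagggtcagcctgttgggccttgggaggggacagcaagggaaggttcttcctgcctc
C1qc: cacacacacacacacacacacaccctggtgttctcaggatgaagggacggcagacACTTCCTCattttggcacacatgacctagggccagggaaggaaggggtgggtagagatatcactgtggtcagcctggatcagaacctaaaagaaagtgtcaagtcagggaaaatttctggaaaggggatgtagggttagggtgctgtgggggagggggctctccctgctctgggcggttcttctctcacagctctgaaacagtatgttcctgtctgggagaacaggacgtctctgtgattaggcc
These letters were absent from the windows of Cx3cr1 and Mpeg1 and present in those of Lyz2, Clec7a, C1qb and C1qc. C1qb and C1qc hold both matches and do not stand for all members that were not called. Of the 26 members with an entry, 16 had GAGGAA and 10 had AGGAAGT. Some members that were not called had neither.

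The 3 subunit genes of C1q, which starts the classical complement pathway, lie side by side on chromosome 4 (136880129 to 136898803, GRCm38) and had near-equal means in the genotypes. C1qb stood at 14.5, 12.7, 13.2 and 12.1 CPM in mutant replicates 1 to 4, against 13.3, 11.3, 13.6 and 14.3 CPM in WT replicates 1 to 4. The groups overlapped throughout, and the log2 fold change was 0.00 ± 0.09 (adjusted p = 1.00). C1qa (-0.02 ± 0.11) and C1qc (0.03 ± 0.11) were not called either (adjusted p = 0.94 and 0.92), and the 3 genes summed to 38.9 ± 3.65 CPM in mutant and 38.8 ± 4.71 CPM in WT hearts (SD, n = 4 each). Per length, C1qb (12.1 ± 0.95 CPM per kilobase in mutant and 12.1 ± 1.16 in WT hearts) and C1qa (11.8 ± 1.596 and 12.0 ± 1.43) were the most abundant members after Lyz2 (19.4 ± 3.09 in mutant and 13.4 ± 0.57 in WT hearts).

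The lineage factor gene Spi1, which encodes PU.1, averaged 2.64 ± 0.32 CPM in mutant and 2.35 ± 0.25 CPM in WT hearts (0.17 ± 0.17, adjusted p = 0.59). The growth receptor gene Csf1r averaged 25.5 ± 3.33 CPM in mutant and 24.6 ± 2.67 CPM in WT hearts (0.05 ± 0.10, adjusted p = 0.83). Of its ligand genes, Csf1 averaged 25.7 ± 1.96 CPM in mutant and 28.3 ± 0.84 CPM in WT hearts (-0.14 ± 0.06, adjusted p = 0.16), and Il34 was scarce (0.686 ± 0.499 CPM in mutant and 0.581 ± 0.283 CPM in WT hearts). Exons of Csf1r overlap those of Hmgxb3 on the other strand, and whether reads were counted by strand is not known here.

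Of 11 resident macrophage genes, Cx3cr1 and Mpeg1 rose, 8 were tested and not called, and Timd4 was not tested. The abundant ones among those not called had overlapping groups. The mannose receptor gene Mrc1 stood at 25.2, 21.9, 24.9 and 26.96 CPM in mutant replicates 1 to 4, against 26.8, 19.7, 27.5 and 30.4 CPM in WT replicates 1 to 4 (-0.08 ± 0.13, adjusted p = 0.78). F13a1, the A subunit of coagulation factor XIII, stood at 21.6, 18.6, 29.5 and 25.6 CPM in mutant replicates 1 to 4, against 26.8, 16.2, 26.6 and 30.2 CPM in WT replicates 1 to 4 (-0.07 ± 0.23, adjusted p = 0.92). In both genes and both genotypes replicate 2 was the lowest heart. The adhesion receptor gene Adgre1, which encodes F4/80 (0.06 ± 0.21), and the lysosomal Cd68 (0.04 ± 0.13) were not called either. The chemokine gene Pf4, which platelets also make, averaged 6.04 ± 1.53 CPM in mutant and 7.51 ± 1.05 CPM in WT hearts (-0.31 ± 0.16, adjusted p = 0.24), and it passed without mutant replicate 1 (-0.50, adjusted p = 0.027). The platelet and megakaryocyte list summed to between 32.1 and 36.9 CPM in mutant and between 31.5 and 39.6 CPM in WT hearts, with 0 of 7 tested genes called by edgeR, DESeq2 or limma-voom (no adjusted p from DESeq2 for 3) and 0 at an unadjusted p under 0.05. Folr2, the folate receptor beta gene (0.53 ± 0.28), and Ms4a7 (0.41 ± 0.31) were at 1.68 CPM or less in all libraries and had wide errors. Of the 1546 exonic bases of Folr2, 975 overlap Gm10602 on the other strand, so the limit on strand given for Csf1r holds for Folr2 too. Timd4, a receptor for phosphatidylserine on dying cells, had 5 to 10 counts in mutant and 3 to 10 counts in WT libraries.

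**Figure D3:**
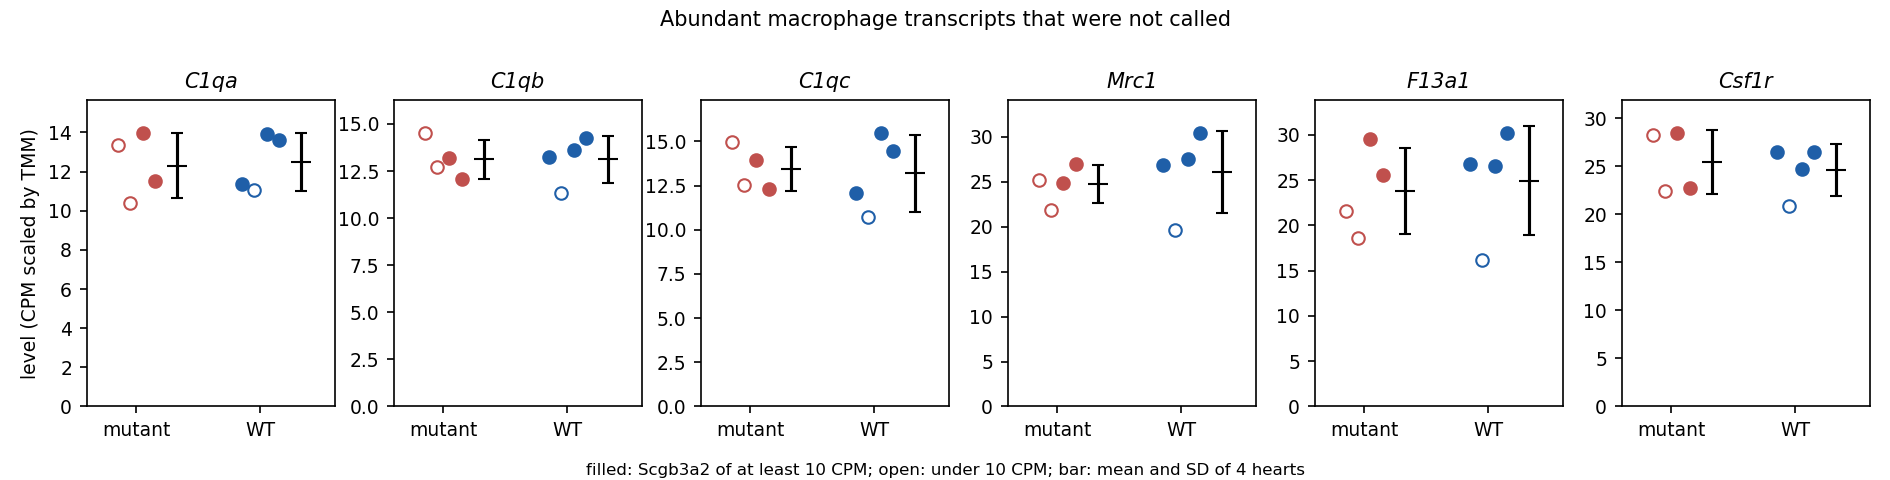
Levels in CPM scaled by TMM of 6 abundant members that were not called, in mutant hearts (left, red) and WT hearts (right, blue), 1 point per heart with the mean and SD of 4 beside them. Points of the genotypes overlap for every gene. For all 6 genes the WT heart with an open point (Scgb3a2 under 10 CPM) is the lowest WT heart, at 19.7 CPM for Mrc1 and 16.2 CPM for F13a1.

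Beside Lyz2, the effector genes were not called. The lysosomal protease gene Ctss averaged 10.8 ± 1.33 CPM in mutant and 9.62 ± 0.75 CPM in WT hearts (0.16 ± 0.10, adjusted p = 0.33), and the actin-binding Aif1, which encodes IBA1, was at 0.32 ± 0.24 (adjusted p = 0.43). Among receptors and their signalling adaptors, Clec7a was the 1 of 6 that was called. The adaptor genes Tyrobp (3.52 ± 0.32 CPM in mutant and 3.29 ± 0.41 CPM in WT hearts) and Fcer1g (3.65 ± 0.72 CPM in mutant and 3.59 ± 0.18 CPM in WT hearts), through whose proteins many myeloid receptors signal, had log2 fold changes of 0.10 and 0.02. The lipid receptor gene Trem2 had 25 to 44 counts in mutant and 17 to 28 counts in WT libraries and was not called (0.59 ± 0.24, adjusted p = 0.12). The lipopolysaccharide co-receptor gene Cd14 was at -0.49 ± 0.25 (adjusted p = 0.23). The Fc receptor gene Fcgr3, whose near paralogues can share its reads, was at -0.30 ± 0.17 (adjusted p = 0.30) and passed without mutant replicate 1 (-0.49, adjusted p = 0.040).

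Of the 5 pan-leukocyte genes, 0 were called by edgeR, DESeq2 or limma-voom (DESeq2 gave no adjusted p for 1), and 0 had an unadjusted p under 0.05. The phosphatase gene Ptprc, which encodes CD45, averaged 4.19 ± 0.78 CPM in mutant and 4.51 ± 0.92 CPM in WT hearts (-0.11 ± 0.18, adjusted p = 0.78). The lysosomal Laptm5 (0.15 ± 0.08), the tetraspanin gene Cd53 (0.09 ± 0.17), the actin regulator gene Coro1a (0.06 ± 0.15) and the integrin gene Itgam (0.16 ± 0.28) had adjusted p-values from 0.26 to 0.86. Itgam shares 3450 of its 5024 exonic bases with the annotated gene Gm49368 on the same strand, which had 0 counts in all libraries, so its level may be understated. Ccr2, the CCL2 receptor that marks recruited monocytes, averaged 1.49 ± 0.12 CPM in mutant and 1.27 ± 0.11 CPM in WT hearts (0.22 ± 0.20, adjusted p = 0.54). Its ligand gene Ccl2 averaged 3.81 ± 0.93 CPM in mutant and 5.08 ± 1.75 CPM in WT hearts (-0.41 ± 0.25, adjusted p = 0.33).

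Both members of the MHC class II antigen presentation pathway were scarce. Cd74, the invariant chain that escorts class II molecules, stood at 2.22, 2.33, 2.73 and 2.40 CPM in mutant replicates 1 to 4, against 1.74, 1.55, 1.88 and 1.67 CPM in WT replicates 1 to 4. The groups did not overlap, but the gene did not pass (0.50 ± 0.17, adjusted p = 0.070). It passed with library totals in place of TMM (0.55, adjusted p = 0.041) and with Scgb3a2 as a covariate (0.53, adjusted p = 0.039). In all, 5 of the 32 tested members had mutant libraries wholly above the WT libraries (15.6%, against 8.8% of all tested genes) and 0 wholly below (9.77% of all tested genes). H2-Aa, a class II alpha chain, had 7, 15, 31 and 30 counts in mutant replicates 1 to 4, against 12, 15, 8 and 10 in WT replicates 1 to 4 (0.80 ± 0.41, adjusted p = 0.24). Its high libraries were mutant replicates 3 and 4. Of 6 further genes of the class II pathway, 4 were tested and 1 rose: the beta chain gene H2-Eb1 stood at 1.90, 2.88, 2.99 and 3.02 CPM in mutant replicates 1 to 4, against 1.14, 1.598, 1.63 and 1.00 CPM in WT replicates 1 to 4 (1.00 ± 0.22, adjusted p = 0.0074). Class II genes are known to be highly polymorphic between mouse strains, and the strains of these hearts are not named in the labels.

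In 7 wider lists of myeloid genes, 8 of 90 tested genes were called (3 higher and 5 lower), which is 8.89%, against 13.2% of all tested genes. Of 40 further macrophage genes, 37 were tested, none rose and 1 fell, with a median log2 fold change of 0.08. The gene that fell was the lipopolysaccharide receptor gene Tlr4, which other heart cells also express (8.37 ± 0.56 CPM in mutant and 12.8 ± 1.39 CPM in WT hearts, -0.62 ± 0.10, adjusted p = 0.00065). Of 11 tested myeloid transcription factors, none rose and 3 fell, where 7.48% of all tested genes were called lower. The interferon regulatory factor gene Irf8 was lower (16.7 ± 1.49 CPM in mutant and 20.03 ± 0.74 CPM in WT hearts, -0.26 ± 0.07, adjusted p = 0.027). The others were Id3 (-0.19 ± 0.05, adjusted p = 0.0197) and Klf4 (-0.20 ± 0.06, adjusted p = 0.044), and the median was -0.19. Id3 averaged 79.6 CPM in mutant and 91.1 CPM in WT hearts, and Klf4 34.2 and 39.4 CPM. Spi1 averaged 2.64 and 2.35 CPM. Which cells of the heart these transcripts came from was not tested. DESeq2 and limma-voom each called 2 of the 3. Of 14 tested genes for signalling behind these receptors, 1 rose, none fell, 13 had a positive log2 fold change and the median was 0.23. It was the Src family kinase gene Fgr (1.21 ± 0.13 CPM in mutant and 0.603 ± 0.106 CPM in WT hearts, 1.00 ± 0.25, adjusted p = 0.014), with at most 29 counts in any library. On this list limma-voom called 1 gene higher and DESeq2 called 0, with no adjusted p from DESeq2 for 3. Among 11 further complement genes, C4b rose (0.81 ± 0.20, adjusted p = 0.015), with reads it can share with its close paralogue C4a. C4b lies on chromosome 17 (34728380 to 34743882, GRCm38), as H2-Eb1 does (34305877 to 34316199). Strain differences in this region were not tested. Among 5 tested monocyte genes, the nuclear receptor gene Nr4a1, an early response gene in many cell types, fell (-0.79 ± 0.07, adjusted p = 1.3e-05). Among the tested genes of neutrophils (6), mast cells (6), dendritic cells (3) and myeloid ligands (8), 0 were called by edgeR, DESeq2 or limma-voom, with no adjusted p from DESeq2 for 3 neutrophil genes and 1 gene of each other list. At an unadjusted p under 0.05, 1 mast cell gene and 1 ligand gene were lower and 1 dendritic cell gene was higher. Summed levels of these lists overlapped between the genotypes: the neutrophil list spanned 5.63 to 14.1 CPM in mutant and 7.59 to 12.2 CPM in WT hearts, and the mast cell list 59.8 to 71.4 CPM in mutant and 63.8 to 75.7 CPM in WT hearts.

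Members also varied between hearts of the same genotype. Replicate 2 had the lowest level of 20 of the 32 members among mutant hearts and of 17 of the 32 among WT hearts, whereas 24.6% and 29.2% of all tested genes were lowest there. These are the hearts with the least Scgb3a2. The 29 members that were not called summed to 209.3, 171.4, 214.3 and 192.2 CPM in mutant replicates 1 to 4, against 196.5, 162.8, 208.1 and 213.8 CPM in WT replicates 1 to 4. Their means were 196.8 ± 19.4 CPM in mutant and 195.3 ± 22.9 CPM in WT hearts (SD, n = 4 each). The 29 were chosen by the same test, so a small gap between these means is partly set by that choice. Of the 28 tested among them, 20 had a positive log2 fold change. All 33 members summed to 245.3 ± 25.2 CPM in mutant and 229.3 ± 23.0 CPM in WT hearts (SD).

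**Figure D4:**
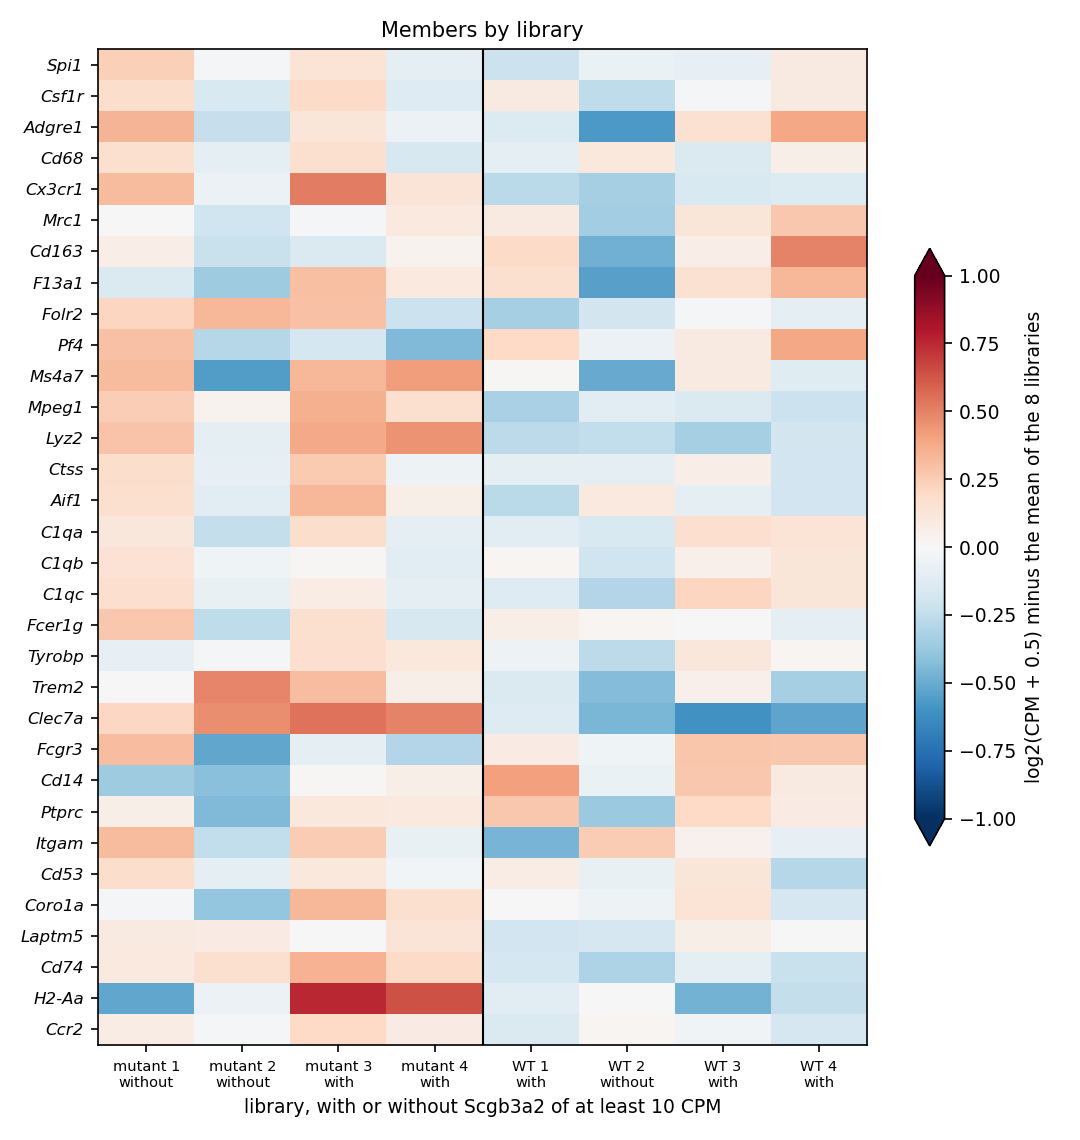
Level of each tested member (rows) in each library (columns, mutant left of WT), as log2(CPM + 0.5) minus the mean of the 8 libraries. Red is above and blue below that mean; Clec7a is red in all 4 mutant and blue in all 4 WT libraries, while Adgre1, F13a1 and Cd163 have their lowest value in WT replicate 2.

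Each member was then read against Scgb3a2 by testing a Scgb3a2 term beside genotype over all genes, a test added after the data were examined. Of the 32 tested members 2 were called, both rising with Scgb3a2. They were F13a1, by 0.09 ± 0.01 log2 units per log2 unit of Scgb3a2 (adjusted p = 0.00048), and Mrc1, by 0.05 ± 0.01 (adjusted p = 0.025). Over all tested genes 5.11% were called for this term and 4.54% rose with it. By mean level, 20 of the 32 members were higher in mutant hearts with airway RNA than in those without (48.9% of all tested genes). In WT hearts, where 1 heart had Scgb3a2 under 10 CPM, 24 of the 32 were (48.7% of all tested genes). In both genotypes 14 of the 32 were higher, against 27.0% of all tested genes. F13a1 averaged 27.6 CPM in mutant hearts with airway RNA and 20.1 CPM in those without, and 27.8 CPM in WT hearts with airway RNA and 16.2 CPM in the WT heart without. The slopes of the 4 members that differed by genotype were 0.03 (Lyz2), 0.03 (Cx3cr1), 0.00 (Mpeg1) and 0.02 (Clec7a), with adjusted p-values from 0.25 to 0.95. With Scgb3a2 as a covariate their log2 fold changes were 0.57, 0.51, 0.42 and 1.35, and all 4 were called.

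In the 5 libraries with airway RNA, the 4 members were again called (Lyz2 0.69, Cx3cr1 0.54, Mpeg1 0.50 and Clec7a 1.41), where 3.63% of genes were called higher and 6.33% lower. H2-Aa was higher (1.499, adjusted p = 0.0099) and Pf4 lower (-0.58, adjusted p = 0.022) in the mutants among these libraries. In the 3 libraries without airway RNA, H2-Aa was at -0.46 (adjusted p = 0.77) and Pf4 at 0.10 (adjusted p = 0.88). The difference between these genotype effects was not called for either gene (1.97 ± 0.64, adjusted p = 0.53, for H2-Aa and -0.67 ± 0.30, adjusted p = 0.66, for Pf4). Over all 32 members, edgeR called 0 such differences, where it called 0.00611% of all tested genes. At an unadjusted p under 0.05 there were 7 of the 32 members, a larger share than the 7.34% of all tested genes. Negative differences included Adgre1 (-0.84 ± 0.35), Cd163 (-0.86 ± 0.38) and Mrc1 (-0.38 ± 0.14). C1qb (-0.38 ± 0.17) and C1qc (-0.45 ± 0.20) were negative too. Adgre1, Cd163, Mrc1, C1qb, C1qc, Pf4 and H2-Aa were the members at that unadjusted level, and only H2-Aa among them was positive. Outside that set, Lyz2 (0.33 ± 0.17) and Coro1a (0.43 ± 0.27) were positive. Each of these values rests on 1 WT heart without airway RNA. The part of airway RNA in the levels of H2-Aa, Pf4 and these other members was not tested further.

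**Figure D5:**
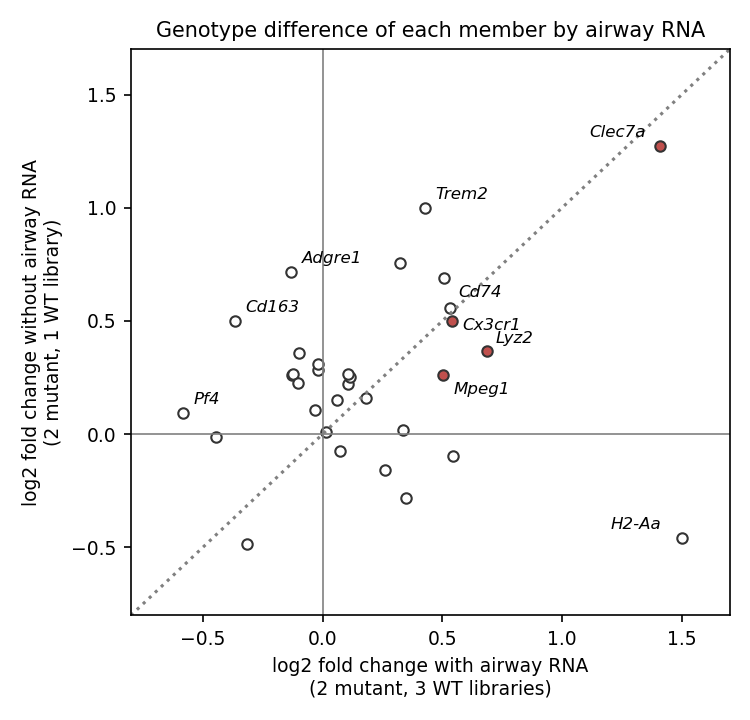
Log2 fold change of each tested member, mutant over WT, within the 5 libraries with airway RNA (x axis) and within the 3 without (y axis, 1 WT library). Filled points were called over all 8 libraries; Clec7a, Cx3cr1, Lyz2 and Mpeg1 are above 0 on both axes, and H2-Aa lies at 1.499 on the x axis and -0.46 on the y axis.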

How the data were processed

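Per the labels' protocols, total RNA of dissected hearts (Trizol) went into TruSeq libraries. The submitters' processing notes name Trimmomatic 0.36, STAR 2.5.2b, featureCounts, Subread 1.5.2 and the build GRCm38. Counts per gene were deposited by the authors without normalization, and no value differed between the files per library and the series-wide table. The deposited files also give each gene's length, used for CPM per kilobase. Neither annotation release nor strand setting is stated. Symbols came from GENCODE M21.

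Genes were filtered with filterByExpr (minimum count 10), scaled by TMM and tested with the robust quasi-likelihood test of edgeR 4.0.16 in R 4.3.3, without covariates, at an adjusted p under 0.05. Alternatives were DESeq2 1.42.0, limma 3.58.1 (voom), other scalings, filters and thresholds, each library left out, a replicate block, Scgb3a2 and Xist covariates (log2 of CPM + 2) and fits by airway RNA. On simulated counts of 16241 genes for this comparison, the test recovered 39.6% of genes changed 1.25-fold, 74.5% at 1.5-fold, 95.8% at 2-fold and 97.9% at 3-fold, with 3.95% false calls. Every simulated gene had the same coefficient of variation between hearts (0.09) around its WT mean, without differences in airway RNA. These shares cover genes of all levels and need not hold for scarce or more variable members. Pairs of libraries within a genotype differed by a chi-square per degree of freedom from 2.72 to 8.52. All members are accounted for: those called or not overlapping are given by library, the others by group, and up to 2 called genes per further list and direction are named. Klf4 was named beyond this after its values were seen. The members and lists were chosen with earlier results of these data known.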

Additional observations from a re-analysis of the deposited data

Results flagged for a closer look

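Within a genotype, 2 values stood far from the other 3 libraries by Dixon's test for 4 samples. Both were the lowest in mutant replicate 2: Ms4a7 at 0.605 CPM, where the other mutant hearts lay between 1.53 and 1.68 CPM, and Ptprc at 3.02 CPM, where they lay between 4.49 and 4.64 CPM. Over the 66 groups examined, chance flags about 1 in 20.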

How the results depend on the processing

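Of 629 values of the 32 tested members under 20 alternatives, 615 kept their side of the threshold, 8 lost a call and 6 gained 1. Signs differed in 50 values that were called in neither fit. The 4 called members kept their direction under every alternative run. Members called higher numbered 4 and were 0 with the Xist covariate and 0 in the 3 libraries without airway RNA, and members called lower numbered 0 and were 1 in the 5 libraries with airway RNA. Without 1 library the members called higher stayed at 4 and those called lower ranged from 0 to 2, the 2 being Pf4 and Fcgr3 without mutant replicate 1. Over all genes, 942 were higher and 1225 lower. Higher genes numbered 1856 with library totals (858 lower, which moved the share of higher calls), 121 with the Xist covariate, 609 and 595 with and without airway RNA, 392 at an adjusted p under 0.01, 1427 under 0.1, and from 579 (without WT replicate 1) to 850 without 1 library. Lower genes numbered 158 with the Xist covariate, 812 without airway RNA and 644 under 0.01. The causes of these shifts were not tested. Same-numbered deviations from the group means had correlations of -0.475, 0.746, 0.505 and 0.0122 for replicates 1 to 4. The closest WT library was replicate 2 for mutant replicates 1 and 2, and replicate 3 for mutant replicates 3 and 4. These values do not decide whether the numbers pair the samples, since airway RNA also differs between libraries. With the replicate block 4 members were higher and 0 lower, with 1023 and 1432 genes. Depth limits the scarcest members: Timd4, H2-Aa, Clec7a and Folr2 had fewer than 10 counts in at least 1 library.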

Other observations

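As CPM of all counts, the Y-linked Ddx3y spanned 70.3 to 80.4 in mutant hearts. In WT hearts it was 78.5, 72.2 and 79.9 CPM in replicates 1 to 3 and 35.5 CPM in replicate 4.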
